A study of Homo sapiens with 15 samples.

Results

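The genes described here are MYOCD, which encodes myocardin, and 9 genes of the contractile apparatus of smooth muscle, namely ACTA2, TAGLN, CNN1, MYL9, TPM1, TPM2, CALD1, MYH11 and LMOD1. They were found by symbol among the 19612 genes of the deposited table, and all 10 were present. The list was drawn up because MYOCD transcripts were counted in H1975–OR cells and hardly at all in H1975 cells. The contrast between these lines therefore chose the genes, and its values are given as a description only, while the comparisons tested are those of the treatments given to H1975–OR cells.

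The H1975 line comes from a human adenocarcinoma of the lung, and every group carried the EGFR alleles T790M and L858R. H1975–OR cells were derived from it by prolonged exposure to osimertinib, an inhibitor of mutant EGFR, and were routinely kept in 500 nM osimertinib. Whether they are a single clone is not given in the sources used here. Library names give the group as a number and the replicate as a letter. Group 1 was H1975 cells given vehicle. Groups 2, 3, 4 and 5 were H1975–OR cells that received vehicle, 1,25(OH)2D3 (calcitriol, the active vitamin D hormone) at 100 nM, osimertinib at 500 nM, and the combination of the agents. All 15 cultures were treated for 96 h in medium with charcoal-stripped serum, with doses at 0, 48 and 92 h. Groups 2 and 3 were thus not given osimertinib during the 96 h, so their contrasts with H1975 cells also include its withdrawal. Total RNA was sequenced from 3 libraries per group. The study describes separate passages for the first 3 groups and does not say whether groups 4 and 5 also came from separate passages. The p-values below measure the spread between libraries of a group, all from cultures of a given line. H1975 cells given 1,25(OH)2D3 or osimertinib were not analysed here.

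Myocardin is a transcriptional coactivator that is brought to its smooth muscle targets by other proteins. It binds serum response factor (SRF), which sits on CArG boxes, short A- and T-rich elements flanked by CC and GG, near the genes of actin, calponin, transgelin and other contractile proteins. Myocardin is known from cardiac and smooth muscle, whereas its relatives MRTFA and MRTFB are widely expressed and answer to the state of the actin cytoskeleton. Several contractile genes, TPM1, CALD1, MYL9 and TAGLN among them, are also transcribed in many non-muscle cells.

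CArG boxes are shown first, since they are the sequence element through which the pathway is best known. RefSeq promoter windows (GRCh38.p14), each from 250 bases before to 50 bases after a transcription start, matched 6 of the 10 genes with 11 windows. MYOCD, TAGLN, MYL9 and MYH11 were not matched. Both strands were searched for the CArG box with only A or T between CC and GG, and also with at most 1 C or G among the inner letters. The first form was in 0 of the 11 windows and in 1.29% of all 35116 windows. The looser form was in 2 of the 11 windows and in 8.13% of all windows. One window belonged to ACTA2 (chr10:88952815-88952914, minus strand), with 2 matches starting 121 and 71 bases before the start site, and the other to CALD1 (chr7:134711453-134711498, plus strand), with a match 26 bases before it. Capitals mark the matches.
ACTA2: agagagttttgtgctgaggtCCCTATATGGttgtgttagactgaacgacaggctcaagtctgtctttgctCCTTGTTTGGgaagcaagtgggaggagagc
CALD1: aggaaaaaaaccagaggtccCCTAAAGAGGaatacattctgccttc
A match is a stretch of letters and not a site shown to be bound. In the libraries ACTA2 had at most 9 counts, too few to test.

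Values are the authors' estimated counts, rounded and expressed as counts per 1000000 (CPM) after TMM scaling, which divides by an adjusted library total. The libraries summed to between 4378030 and 6140120 estimated counts, with a median of 4974785. A floor of 3 counts lay between 0.477 and 0.708 CPM, and the floor covers counting error only. Sample 3a stood apart from its group, with a mean correlation of 0.938 with Samples 3b and 3c over 14846 genes and a mitochondrial share of 1.54%. The other 14 libraries had means between 0.954 and 0.974 and shares between 0.424% and 1.05%. The study set Sample 3a aside, and it was left out of the fits here, while its levels are shown. CYP24A1, a standard target of the vitamin D receptor, was at 676.5 CPM or more in the 6 libraries given 1,25(OH)2D3 and at 9.13 CPM or less in the other 6 H1975–OR libraries. Estimated counts can be 0 for reasons of read assignment. TMOD3, a broadly expressed tropomodulin, was listed at 0 in 12 of 12 H1975–OR libraries, so a 0 below is a listed 0.

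MYOCD (ENSG00000141052, GRCh38 chr17:12665890-12768949, plus strand) was counted in every H1975–OR library and almost never in H1975. Its rounded counts were 0, 1 and 0 in Samples 1a, 1b and 1c. In vehicle-treated H1975–OR cells it stood at 14.7, 24.0 and 29.1 CPM in Samples 2a, 2b and 2c, from 72, 116 and 151 counts. With 1,25(OH)2D3 it was at 32.1, 16.8 and 21.4 CPM in Samples 3a, 3b and 3c. These 2 groups overlapped over most of their range. With osimertinib it was at 11.04 CPM in Sample 4a but at 74.5 and 73.6 CPM in Samples 4b and 4c. With both agents it was at 20.5 CPM in Sample 5a and at 99.0 and 68.2 CPM in Samples 5b and 5c. In both osimertinib-treated groups the letter a library lay within or below the range of vehicle, and the b and c libraries lay above every library without osimertinib.

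The group means of MYOCD were 22.6 ± 7.29 CPM with vehicle (SD, n = 3), 19.1 ± 3.27 CPM with 1,25(OH)2D3 without Sample 3a (SD, n = 2) or 23.4 ± 7.89 CPM with it (SD, n = 3), 53.1 ± 36.4 CPM with osimertinib (SD, n = 3) and 62.5 ± 39.6 CPM with both agents (SD, n = 3). The order was 1,25(OH)2D3, vehicle, osimertinib, both agents when Sample 3a was left out. Every neighbouring pair in this order overlapped, and with Sample 3a the first 2 changed places. Against the 1 count in all H1975 libraries, the ratio of MYOCD in vehicle-treated H1975–OR cells was 367.7, with an exact 95% counting interval of 65.6 to 14570, which describes the uncertainty of so few counts and not the spread between cultures. For the 12 H1975–OR libraries the lowest level was 11.04, the median 26.6 and the highest 99.0 CPM, so the lowest, Sample 4a with 58 counts, was still far above the parental floor.

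**Figure D1:**
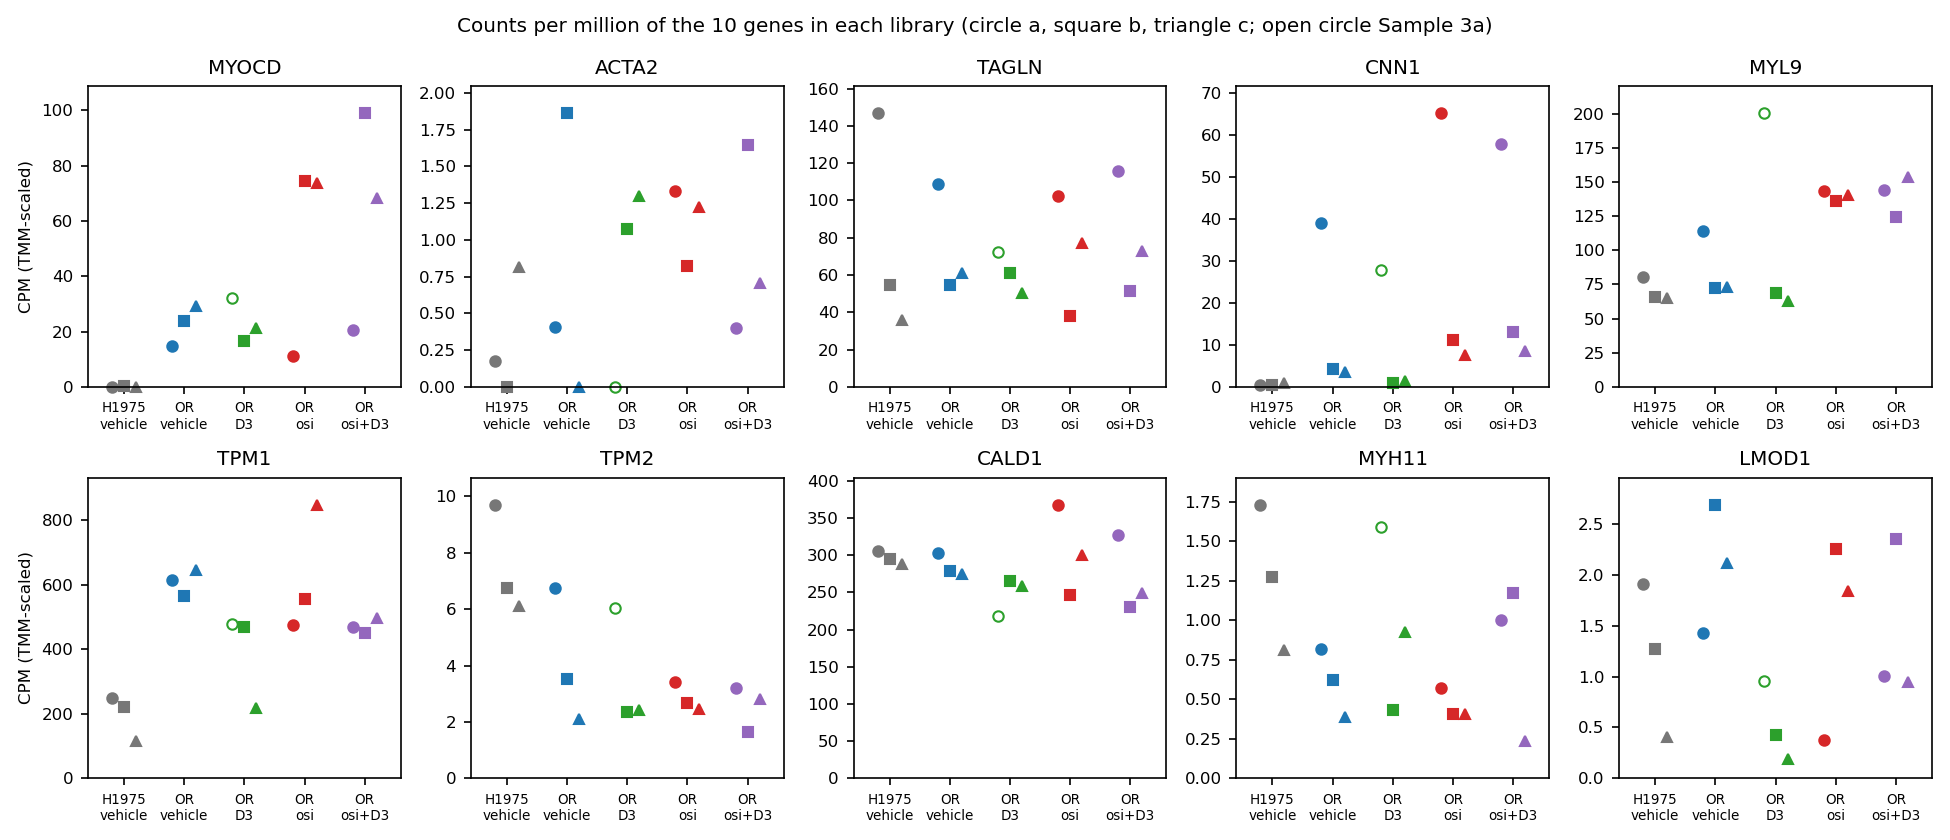
CPM of each of the 10 genes (vertical axis, linear from 0, own scale per gene) in the 5 groups (horizontal axis), with 1 point per library, circles for letter a, squares for b, triangles for c and an open circle for Sample 3a. MYOCD is at 0 to 0.182 CPM in H1975 and at 11.04 to 99.0 CPM in H1975–OR, whereas ACTA2 and MYH11 stay under 2 CPM throughout.

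Genes near MYOCD were also read. Of 6 annotated protein-coding genes within 1000000 bases of it, 4 passed the filter on low counts, and their log2 fold changes in vehicle-treated H1975–OR cells over the parental cells ran from 0.22 (MAP2K4 and ELAC2) to 0.67 (ZNF18). The fitted log2 fold change of MYOCD itself was 8.05 ± 0.64 (SE), a value that rests on the fit's handling of 1 parental count.

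Among the partners of myocardin, SRF was present in both lines, at 66.0 ± 7.54 CPM in H1975 (SD, n = 3) and 60.1 ± 12.1 CPM in vehicle-treated H1975–OR cells (SD, n = 3). MRTFA was at 27.7 ± 3.56 and 21.3 ± 6.39 CPM and MRTFB at 46.1 ± 10.4 and 24.6 ± 4.36 CPM (SD, n = 3 each). On the scale of CPM per kilobase of transcript, which allows levels of genes of different length to be compared, MYOCD made up between 11.3% and 60.3% of the sum of the 3 family members in the H1975–OR libraries, with a median of 29.5%. In H1975 its share was at most 0.212%. MRTFA had the largest median share, 53.3% in H1975 and 40.8% over the 12 H1975–OR libraries, but the order differed between treatments. By group means per kilobase, MYOCD was below MRTFA with vehicle (2.64 against 4.72 CPM) and above it with osimertinib (6.196 against 5.71 CPM) and with both agents (7.30 against 5.34 CPM), where the MYOCD libraries were widely spread.

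Actin and its partners on the thin filament followed no common pattern. ACTA2 (ENSG00000107796, GRCh38 chr10:88935074-88991339, minus strand), the α-actin of smooth muscle and the most used marker of that lineage, had between 0 and 9 counts in the 15 libraries. It reached at most 0.814 CPM in H1975 and 1.86 CPM, in Sample 2b, in H1975–OR. It was at 0 counts in Samples 2c and 3a, both of which contained MYOCD. Its groups overlapped, it failed the filter on low counts, and no difference was detectable at this depth. Per kilobase it was at most 0.0658% of the 6 actins measured, whose bulk came from ACTB and ACTG1, the cytoplasmic actins. Of the 31-base words of its transcripts, 9.05% also occur in transcripts of other genes in the table, mostly in FAS, which lies on the other strand and overlaps it. Whether the estimation used the strand is not given in the sources used here.

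CNN1 (ENSG00000130176, GRCh38 chr19:11538767-11550323, plus strand), calponin of smooth muscle, which binds actin and dampens myosin activity, had the highest fold change of the 9 contractile genes between the lines. It was at 0.347, 0.547 and 0.814 CPM in Samples 1a, 1b and 1c, from 2, 3 and 4 counts. With vehicle it was at 39.1 CPM in Sample 2a but at 4.14 and 3.47 CPM in Samples 2b and 2c. With 1,25(OH)2D3 it was at 27.7 CPM in Sample 3a and at only 0.859 and 1.30 CPM in Samples 3b and 3c. These last 2 values, from 4 and 7 counts, lay just above the H1975 range and below every other H1975–OR library. They stood near the floor of 3 counts, with 4 counts in Sample 1c as well. With osimertinib CNN1 was at 65.1, 11.1 and 7.57 CPM in Samples 4a, 4b and 4c. With both agents it was at 57.8, 12.9 and 8.49 CPM in Samples 5a, 5b and 5c. In each of the 4 H1975–OR groups the letter a library was the highest, at 5.39 to 25.6 times the mean of b and c. The log2 fold change over H1975 with vehicle was 4.75 ± 1.08 (SE), and it was 2.70 without Sample 2a. Within the calponins, per kilobase, CNN1 rose from a median of 0.147% of the family in H1975 to 2.40% in H1975–OR, with a highest value of 14.1%, and CNN3, a calponin of non-muscle cells, remained the largest part at 68.1%.

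TPM1 (ENSG00000140416, GRCh38 chr15:63042620-63071915, plus strand), a tropomyosin that lies along actin filaments in muscle and, as other splice forms, in most cells, had the highest mean level of the 10 genes in H1975–OR per kilobase of canonical transcript, 429.8 CPM, with CALD1 next at 55.2 CPM. It was at 248.1, 220.4 and 115.2 CPM in Samples 1a, 1b and 1c. With vehicle it was at 613.4, 565.5 and 644.0 CPM in Samples 2a, 2b and 2c, so that the 2 groups did not overlap. Among the treated H1975–OR libraries it ranged from 218.4 CPM in Sample 3c to 846.7 CPM in Sample 4c, and Sample 3c alone fell into the H1975 range. The log2 fold change over H1975 with vehicle was 1.66 ± 0.33 (SE). TPM1 made up a median of 32.1% of the 4 tropomyosins per kilobase in H1975 and 58.7% in H1975–OR. With the longest annotated transcripts in place of the canonical ones these were 13.1% and 31.3%, and TPM4 was the largest of the family in both lines, at 64.4% and 53.1%. The table sums all splice forms, and which of them changed was not analysed here.

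TPM2 (ENSG00000198467, GRCh38 chr9:35681992-35690056, minus strand), β-tropomyosin, was low. It lay between 6.11 and 9.70 CPM in H1975 and between 1.65 and 6.75 CPM in H1975–OR. The 2 letter a libraries 2a and 3a, at 6.75 and 6.04 CPM, were the highest of H1975–OR and the closest to the parental values. Its log2 fold change between the vehicle groups was −0.85 ± 0.49 (SE), in the direction opposite to TPM1.

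CALD1 (ENSG00000122786, GRCh38 chr7:134744252-134970729, plus strand), caldesmon, an actin and myosin binding protein, hardly varied. It was at 306.1, 295.4 and 288.0 CPM in H1975 and at 303.2, 279.2 and 275.3 CPM in vehicle-treated H1975–OR cells, and it stayed between 218.9 and 367.8 CPM over all 15 libraries. The log2 fold change between the vehicle groups was −0.04 ± 0.09 (SE).

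TAGLN (ENSG00000149591, GRCh38 chr11:117199370-117207464, plus strand), transgelin, an actin-bundling protein also called SM22α, was at 146.7, 54.5 and 36.0 CPM in Samples 1a, 1b and 1c and at 108.9, 54.6 and 61.1 CPM in Samples 2a, 2b and 2c. The groups overlapped. The letter a library was the highest in all 5 groups, H1975 included, at 1.29 to 3.24 times the mean of b and c. Its log2 fold change was −0.07 ± 0.48 (SE) and 0.72 when Sample 1a was left out. TAGLN shared 32.1% of its 31-base words with other genes, chiefly PCSK7 on the other strand, so without strand the reads from those stretches cannot be told apart from theirs.

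LMOD1 (ENSG00000163431, GRCh38 chr1:201896456-201946548, minus strand), a leiomodin that nucleates actin filaments in smooth muscle, had between 1 and 13 counts per library. It was at 0.407 to 1.91 CPM in H1975 and 1.43 to 2.69 CPM in vehicle-treated H1975–OR cells, and the ranges overlapped. With 1,25(OH)2D3 it was at 0.954, 0.43 and 0.186 CPM, below every vehicle-treated H1975–OR library, on 6, 2 and 1 counts.

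The myosin members also parted ways. MYL9 (ENSG00000101335, GRCh38 chr20:36541497-36551447, plus strand), the regulatory light chain of smooth muscle myosin, was at 80.2, 66.0 and 64.9 CPM in H1975 and at 114.4, 72.2 and 72.9 CPM in Samples 2a, 2b and 2c. Its log2 fold change between these groups was 0.31 ± 0.20 (SE), and 0.04 without Sample 2a. With 1,25(OH)2D3 it was at 200.3 CPM in Sample 3a and at 68.5 and 63.2 CPM in Samples 3b and 3c. With osimertinib it was at 143.1, 136.2 and 140.5 CPM, and with both agents at 144.2, 124.6 and 154.0 CPM. All 6 libraries given osimertinib thus lay above all other libraries except Sample 3a, and their spread was small. Per kilobase, MYL9 made up a median of 4.13% in H1975 and 6.61% in H1975–OR of the regulatory light chains, which were mostly MYL12A and MYL12B, near copies of each other used in non-muscle cells.

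MYH11 (ENSG00000133392, GRCh38 chr16:15703135-15857028, minus strand), the smooth muscle myosin heavy chain and the most specific marker of the lineage, had between 1 and 10 counts per library. It was at 0.814 to 1.73 CPM in H1975 and 0.386 to 0.818 CPM in vehicle-treated H1975–OR cells. It failed the filter on low counts. Per kilobase it was at most 0.124% of its family, of which MYH9, the non-muscle heavy chain, made up 79.6% or more. NDE1, which overlaps it on the other strand, shared 5.06% of its 31-base words.

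Of the 8 members that passed the filter, 3 (MYOCD, CNN1 and TPM1) lay past the threshold used for all genes, an edgeR adjusted p under 0.05, on the higher side in H1975–OR and 0 on the lower side, where 20.1% of the 12513 genes tested were called, 9.89% higher and 10.3% lower. Since the 10 genes were chosen on this contrast, the count is no test of them and nothing is read from it. The median log2 fold change of the 8 members was 0.55, beside 0.006 for all genes tested, and it too is only a description. MYOCD and CNN1, with at most 4 counts in any H1975 library, passed the filter through H1975–OR libraries. ACTA2 and MYH11 are not part of the median. In bulk RNA, fewer cells that express a gene and less RNA of it per cell cannot be told apart.

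**Figure D2:**
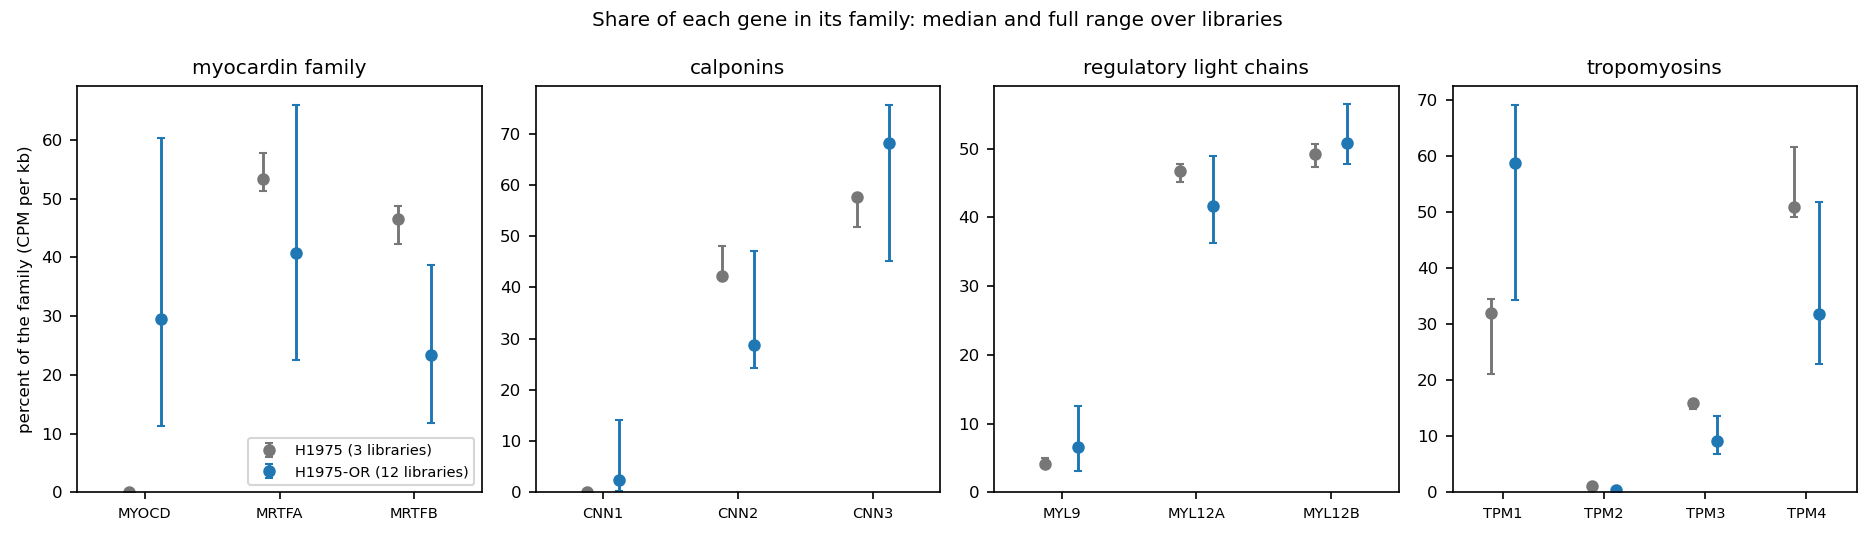
Percent of each gene family's summed CPM per kilobase (vertical axis, linear) held by each gene (horizontal axis, canonical transcript lengths), as the median and full range over 3 H1975 libraries (grey) and 12 H1975–OR libraries (blue). MYOCD goes from at most 0.212% to a median of 29.5%, TPM1 from 32.1% to 58.7% (13.1% to 31.3% with the longest transcripts), and CNN1 and MYL9 remain small parts of their families.

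The wider pathway was described with 4 lists. Of 15 regulators around SRF, 14 were tested and edgeR called 3 higher and 1 lower in vehicle-treated H1975–OR than in H1975 cells, where 20.1% of all genes were called. DESeq2 called 3 higher and 3 lower, adding KLF5 and MRTFB. PRRX1, a mesenchymal homeobox factor, had a log2 fold change of 4.44 at a level of only 1.83 ± 1.47 CPM (SD, n = 3). FOXO4, a forkhead factor, was at 17.8 ± 1.88 CPM against 7.83 ± 1.28 CPM in H1975 (SD, n = 3 each). MEF2C, a myogenic MADS-box factor, had a log2 fold change of 0.88, and ELK3, an ETS factor that partners SRF, −1.07. Of 20 other genes of smooth muscle, 16 were tested, with 2 called higher and 2 lower by either tool. FHL1, a LIM protein, had a log2 fold change of 2.52 ± 0.27 (SE) and CSRP1, a LIM protein of smooth muscle, 1.17 ± 0.19 (SE). MYLK, the kinase that phosphorylates the regulatory light chain, was at 118.1 ± 57.0 CPM against 271.9 ± 52.0 CPM in H1975 (SD, n = 3 each). Of 17 close relatives of the members, 12 were tested, with 4 called higher and 2 lower by edgeR and 4 and 3 by DESeq2, which added TPM3. The relatives with the smallest p were CNN3 (log2 fold change 0.76), ACTG1 (−0.66), MYL12A (0.44) and MYL12B (0.42). Of 7 immediate early targets of SRF, 4 were tested and 0 were called by edgeR or by DESeq2, with 0 also at an unadjusted p under 0.05. The median log2 fold changes of the 4 lists were 0.02, 0.12, −0.14 and −0.09.

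Markers of other cell types were read beside these values. The 7 smooth muscle markers summed to between 35.0 and 72.8 CPM in H1975 and between 41.5 and 120.1 CPM in H1975–OR. This list includes CNN1, MYH11 and LMOD1 of the 10 genes, so its sum partly restates them. CNN1 alone was at 65.1 CPM in Sample 4a, and SMTN reached 51.8 CPM in H1975. Of 8 markers of striated muscle, MYOD1, CKM and MYH6 were at 0 in all 15 libraries of both lines. The list summed to between 24.4 and 33.8 CPM in H1975 and between 1.02 and 57.2 CPM in H1975–OR. TTN was the only one above the floor in any library, at 24.4 to 33.4 CPM in H1975 and 0.409 to 56.55 CPM in H1975–OR. The 8 fibroblast markers summed to between 33.4 and 45.6 CPM in H1975, 55.9 and 647.2 CPM in H1975–OR, with LUM at 0 in H1975. Their members went in both directions. Between the vehicle groups COL3A1 went from 0.173 to 53.9 CPM, while COL1A1 went from 21.0 to 9.51 CPM and COL1A2 from 12.1 to 1.02 CPM. COL1A1 alone made up 554.8 CPM of the highest sum, that of Sample 3a. The 4 pericyte markers summed to between 80.2 and 91.4 CPM in H1975 and between 160.9 and 404.9 CPM in H1975–OR. Most of this was MCAM, at 53.9 to 64.8 CPM in H1975 and 144.6 to 392.0 CPM in H1975–OR. NOTCH3 went the other way, with 4.33 to 29.3 CPM in H1975 and 0.235 to 2.48 CPM in H1975–OR. The ranges of RGS5 and CSPG4 overlapped between the lines. The 4 endothelial markers stayed under 17.4 CPM. The 10 lung epithelial markers summed to between 4773 and 6490 CPM in H1975 and 3363 and 4505 CPM in H1975–OR. These sums hide unlike changes of single markers. Between the vehicle groups the log2 fold change was −5.11 for CDH1, −3.69 for EPCAM and −2.72 for CLDN4. KRT18 (0.38) and NKX2-1 (0.35) were the only tested markers of this list above 0. The part of these shifts in the values of the 10 genes was not tested.

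Osimertinib was then compared with vehicle in H1975–OR cells, which asks how the resistant cells differ with and without the drug they are kept in. The vehicle cells went without it for the 96 h of treatment. A response to the drug and one to its withdrawal cannot be told apart here. Of the 8 members tested, 0 were called by edgeR, with 1 at an unadjusted p under 0.05 and 1 called by DESeq2, where edgeR called 0.048% and DESeq2 0.936% of 12503 genes. MYL9 had the smallest p. Its log2 fold change was 0.70 ± 0.18 (SE) with an adjusted p of 0.331 by edgeR and 0.0441 by DESeq2, and the level was higher in 3 of 3 letters, at 139.9 ± 3.50 CPM against 86.5 ± 24.2 CPM (SD, n = 3 each). MYOCD had a log2 fold change of 1.23 ± 0.67 (SE; edgeR adjusted p = 0.758). Compared within letters, it was 0.749 times vehicle in letter a, 3.11 times in b and 2.53 times in c. CNN1 was 1.67, 2.67 and 2.18 times vehicle in letters a, b and c, with a log2 fold change of 0.85 ± 1.09 (SE; edgeR adjusted p = 0.925). Leaving out Sample 4a turned this pooled CNN1 value to −0.73, and leaving out Sample 2a raised it to 2.87. Without Sample 2a, MYL9 passed the edgeR test (adjusted p = 0.0278). The libraries of these 2 groups deviated together by letter. With the letter as a block, edgeR called 35 genes (0.28%) in place of 6, and 0 members, with an adjusted p of 0.104 for MYL9, 0.143 for CNN1 and 0.308 for MYOCD. The remaining 5 members had log2 fold changes between −0.53 (TPM2) and 0.10 (CALD1). The median of the 8 was 0.07, beside 0.008 for all genes.

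Both agents were compared with the same vehicle libraries. Of the 8 members, 0 were called by edgeR, with 1 at an unadjusted p under 0.05 and 1 called by DESeq2, where edgeR called 0.496% and DESeq2 2.91% of all genes. MYL9 had a log2 fold change of 0.70 ± 0.18 (SE), with an adjusted p of 0.156 by edgeR, 0.0192 by DESeq2 and 0.0394 by edgeR with the letter as a block, and it was higher in 3 of 3 letters, by 1.26, 1.73 and 2.11 times. With the block, 3.69% of all genes were called (461 in place of 62), and MYL9 was the only member among them. It also passed without the block when Sample 2a was left out (edgeR adjusted p = 0.0125). MYOCD had a log2 fold change of 1.46 ± 0.68 (SE; edgeR adjusted p = 0.414, or 0.0953 with the block) and was 1.39, 4.13 and 2.34 times vehicle in letters a, b and c. CNN1 had 0.77 ± 1.09 (SE; edgeR adjusted p = 0.842, or 0.0602 with the block), and −0.54 without Sample 5a. TPM1 lay below vehicle in 3 of 3 letters, at 0.763, 0.795 and 0.770 times, with a log2 fold change of −0.37 ± 0.27 (SE; edgeR adjusted p = 0.631). The median of the 8 was 0.00 on the log2 scale, as for all genes to 2 decimals.

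**Figure D3:**
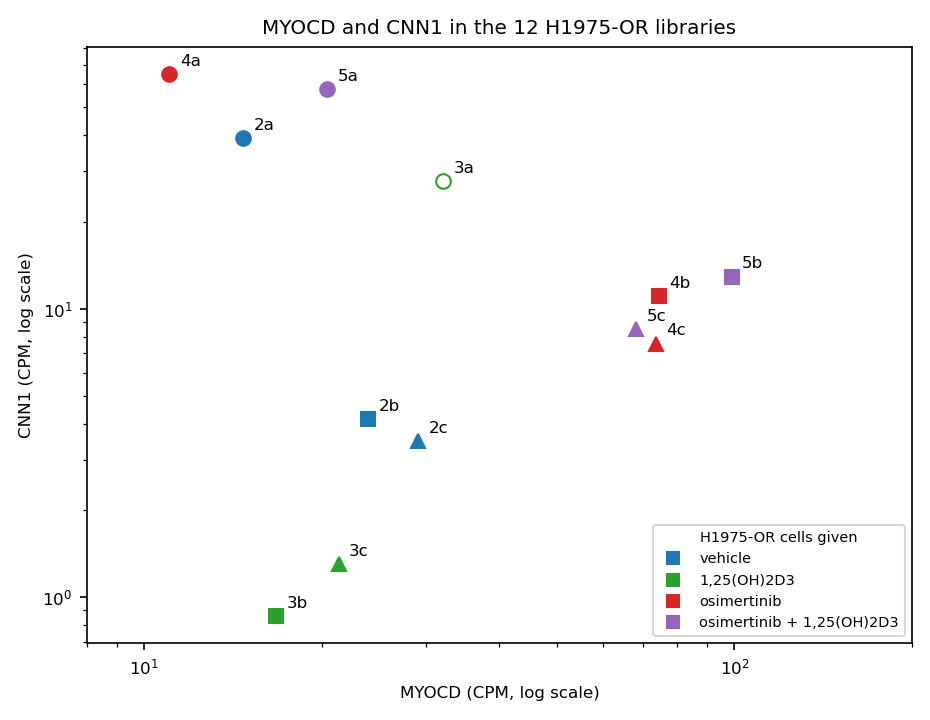
MYOCD (horizontal axis, CPM, log scale) against CNN1 (vertical axis, CPM, log scale) in the 12 H1975–OR libraries, coloured by treatment, with circles, squares and triangles for letters a, b and c and an open circle for Sample 3a. The 4 letter a libraries have CNN1 at 27.7 to 65.1 CPM, above all b and c libraries (0.859 to 12.9 CPM), while their MYOCD is at 11.04 to 32.1 CPM.

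1,25(OH)2D3 was compared with vehicle to ask how the hormone changed the resistant cells. Of the 8 members, 0 were called by edgeR, with 2 at an unadjusted p under 0.05 and 1 called by DESeq2, where edgeR called 0.152% of 12513 genes, all of them higher, and DESeq2 0.991%. CNN1 had a log2 fold change of −3.81 ± 1.19 (SE), with an adjusted p of 0.497 by edgeR and 0.0494 by DESeq2. This value rests on Sample 3a being left out and on 4 and 7 counts in Samples 3b and 3c. With Sample 3a in the fit it was −0.62 ± 1.24 (SE; edgeR adjusted p = 0.921), and without Sample 2a it was −1.78 ± 0.71 (SE; edgeR adjusted p = 0.695). Within letters CNN1 was 0.708, 0.208 and 0.375 times vehicle, lower in 3 of 3. LMOD1 had −2.69 ± 0.95 (SE; edgeR adjusted p = 0.556) on the few counts given above. TPM1 had −0.82 ± 0.37 (SE; edgeR adjusted p = 0.694), with same-letter ratios of 0.780, 0.831 and 0.339. MYOCD had −0.24 ± 0.40 (SE; edgeR adjusted p = 0.943) with 2 hormone-treated libraries. The log2 fold change was below 0 for 8 of the 8 members, with a median of −0.60 beside −0.007 for all genes, in the fit without Sample 3a. That fit has letter a with vehicle but not with the hormone. Sample 2a was the highest vehicle library for CNN1, TAGLN, MYL9, TPM2 and CALD1 and the lowest for MYOCD and LMOD1. The part of this imbalance in the signs was not tested, and members measured in the same libraries are not replicates. With Sample 3a MYL9 was at 0.37 ± 0.41 and MYOCD at 0.06 ± 0.39 (SE; edgeR adjusted p = 0.842 and 0.983). The fibroblast markers summed to between 214.8 and 647.2 CPM in the hormone-treated libraries and between 65.5 and 118.3 CPM with vehicle, COL1A1 being at 99.4 CPM or more against 10.03 CPM or less, and their part in these values was not tested.

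1,25(OH)2D3 was also given on top of osimertinib. Both agents against osimertinib gave 0 members called by edgeR, 0 at an unadjusted p under 0.05 and 0 by DESeq2, where edgeR called 0.096% and DESeq2 0.528% of all genes. MYL9 had a log2 fold change of 0.00 ± 0.18 (SE), MYOCD 0.23 ± 0.65 and CNN1 −0.09 ± 1.07 (SE, each with an edgeR adjusted p of 1.00). The sign of the MYOCD and CNN1 values turned without Sample 4a (−0.26 and 1.5). With the letter as a block 33 genes (0.264%) were called in place of 12, and 0 members. The CNN1 levels of the same letter differed by 0.888, 1.17 and 1.12 times. The test of the difference between the hormone's effects with and without osimertinib called 0 of all genes by edgeR, where 330 had an unadjusted p under 0.05 and DESeq2 called 11 (0.088%). Of the members, 0 were called by either tool, with 0 at an unadjusted p under 0.05 by edgeR and 1 by DESeq2. For CNN1 this difference was 3.72 ± 1.93 and for LMOD1 2.61 ± 1.21 on the log2 scale (SE; edgeR adjusted p = 1.00 each). Both values rest on few counts in Samples 3b and 3c. With Sample 3a kept in, the difference was 0.54 ± 1.87 for CNN1 and −0.36 ± 0.53 for MYL9, against 0.39 ± 0.27 for MYL9 without it (SE).

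Both agents were last compared with 1,25(OH)2D3 alone, which asks for the effect of osimertinib in the presence of the hormone. Of the 8 members, 0 were called by edgeR, with 2 at an unadjusted p under 0.05 and 2 called by DESeq2, where edgeR called 0.256% and DESeq2 2.63% of all genes. MYL9 had a log2 fold change of 1.09 ± 0.21 (SE), with an adjusted p of 0.0729 by edgeR and 0.000176 by DESeq2. CNN1 had 4.57 ± 1.64 (SE), with 0.315 by edgeR and 0.0105 by DESeq2, and MYOCD 1.70 ± 0.79 (SE; edgeR adjusted p = 0.443). The CNN1 value rests on the few counts of Samples 3b and 3c given above. Without Sample 2a, which enters through the shared estimate of the spread, MYL9 had an edgeR adjusted p of 0.00877. With Sample 3a in the fit the log2 fold changes were 0.34 for MYL9, 1.39 for CNN1 and 1.4 for MYOCD, with edgeR adjusted p of 0.871, 0.843 and 0.570. Against Sample 3a, Sample 5a was at 0.720 times in MYL9 and 0.637 times in MYOCD, whereas Samples 5b and 5c were 1.82 and 2.44 times the same-letter library in MYL9 and 5.91 and 3.19 times in MYOCD. Here too it could not be decided whether the letters pair. The log2 fold change was above 0 for 8 of the 8 members, with a median of 0.80 beside 0.016 for all genes. The small values of TPM2 (0.10) and CALD1 (0.03) fell below 0 without Sample 5a. Here too the hormone group lacked letter a. Sample 5a was the highest of its group for CNN1, TAGLN, TPM2 and CALD1 and the lowest for MYOCD. The treatment comparisons share libraries, and their values are therefore not independent of each other.

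**Figure D4:**
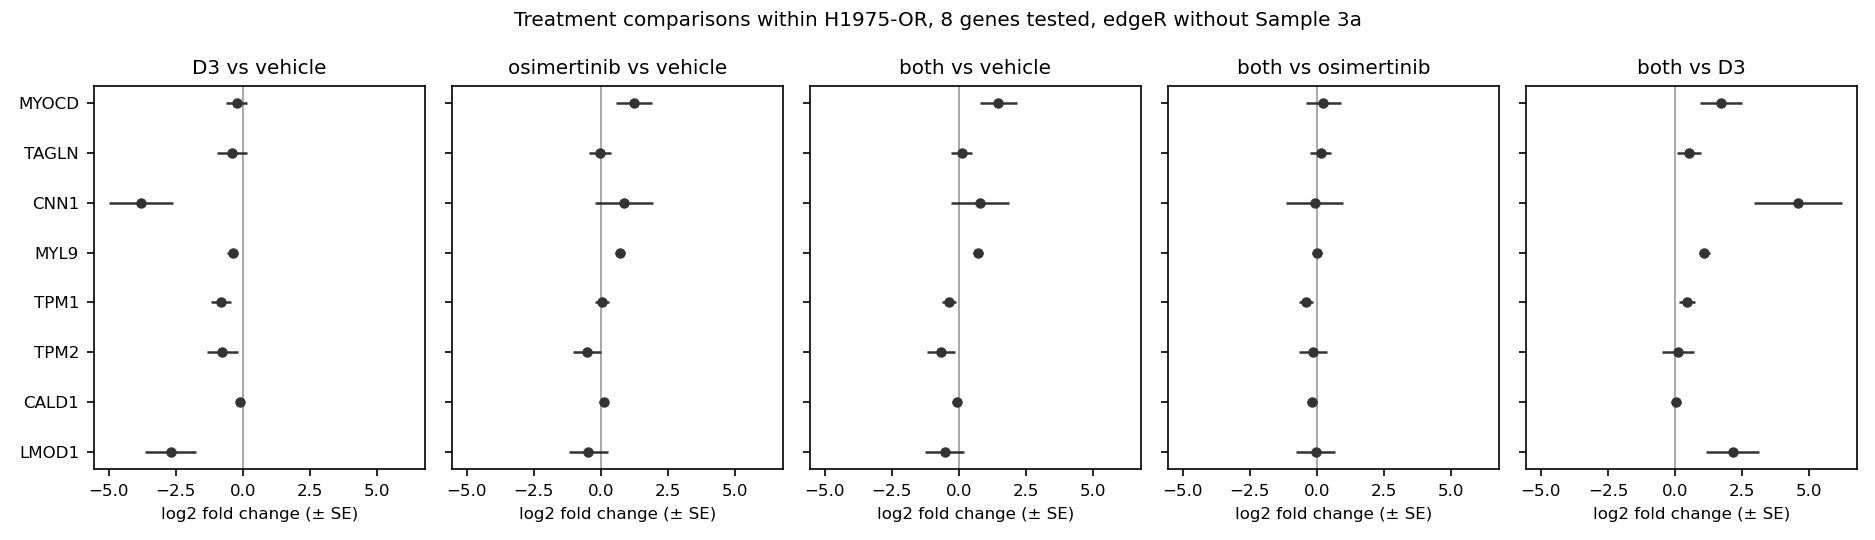
Log2 fold change ± SE (horizontal axis) of the 8 tested genes (vertical axis) in 5 treatment comparisons within H1975–OR, from edgeR without Sample 3a (3 libraries per group, 2 with 1,25(OH)2D3). None of the 8 passed an adjusted p of 0.05. MYL9 lies at 0.70 in both comparisons of an osimertinib-treated group with vehicle, and CNN1 has wide bars.

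The pathway lists were read in the same fits. Of the SRF regulators, the other smooth muscle genes, the relatives and the immediate early genes, 0 were called by edgeR in any of the 5 treatment comparisons, with 0 to 4 genes of a list at an unadjusted p under 0.05. The immediate early genes had medians of −0.42 for osimertinib against vehicle, −0.81 for both agents against vehicle and −0.96 for both agents against 1,25(OH)2D3, with 4, 3 and 3 of 4 below 0. EGR1, a zinc finger factor, was at 1.23, 7.86 and 6.36 CPM in Samples 2a, 2b and 2c, at 0.761, 0.205 and 0.205 CPM in Samples 4a, 4b and 4c, and at 0.401, 0 and 0 CPM in Samples 5a, 5b and 5c, from 0 to 4 counts in the last 2 groups. The osimertinib-treated libraries lay below every vehicle library. DESeq2 called EGR1 lower and edgeR did not (adjusted p = 0.103 for both agents against vehicle and 0.158 against 1,25(OH)2D3). FOS, an AP-1 subunit, had log2 fold changes of −1.41 ± 0.43 and −1.43 ± 0.47 in those comparisons (SE; edgeR adjusted p = 0.223 and 0.274), and IER2 −0.20 and −0.48. DESeq2 also called JUNB, for both agents against vehicle and against osimertinib, and CSRP1 of the smooth muscle genes, for both agents against 1,25(OH)2D3. With the letter as a block, which applies to the groups whose letters pair, both agents against vehicle gave JUNB higher (log2 fold change 1.02 ± 0.11, edgeR adjusted p = 0.00591) and FHL1 (−0.79 ± 0.11, 0.0125) and CSRP1 (−0.65 ± 0.14, 0.047) lower, and both agents against osimertinib gave JUNB higher (1.27 ± 0.12, 0.00483). JUNB is an immediate early AP-1 subunit. FHL1 and CSRP1 were higher in H1975–OR than in H1975, and here they moved in the direction opposite to MYL9.

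The members also differed between letters. In the vehicle, osimertinib and combined groups the letter a library had the lowest MYOCD, at 0.555, 0.149 and 0.245 times the mean of b and c, together with the highest CNN1, at 10.3, 6.99 and 5.39 times, and the highest TAGLN, at 1.88, 1.78 and 1.87 times. Sample 3a had the highest CNN1 and TAGLN of its group too, but also the highest MYOCD, at 1.69 times. Mitochondrial transcripts took 0.746%, 1.54%, 1.04% and 1.04% of the counts in Samples 2a, 3a, 4a and 5a and between 0.424% and 0.774% in the b and c libraries of H1975–OR. The part of this in the letter pattern was not tested. What the letters stand for beyond a replicate number is not given in the labels.

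Genes whose level across libraries was most like that of MYOCD were ranked by Pearson's r of log2(CPM + 2) over the 14 libraries other than Sample 3a, among 10662 genes with a mean of at least 5 CPM. The first 5 were FOXN3, a forkhead repressor (r = 0.989), C6orf48, a host gene of small nucleolar RNAs (0.988), C1orf198, of unknown function (0.984), KDM5A, a histone demethylase (0.982), and RARB, a retinoic acid receptor (0.979). The 14 libraries include both lines, whose difference enters every r, and no p is given. RARB went from 0.549 CPM in H1975 to 40.4 CPM with vehicle and 57.8 CPM with osimertinib, and FOXN3 from 27.2 to 112.0 and 174.6 CPM. Of the 5, 3 were also among the first 5 by Spearman's rank correlation and 2 when only the 11 H1975–OR libraries were used, with FOXN3 first (r = 0.975). The contractile members were farther from MYOCD. TPM1 had r = 0.761, MYL9 0.594, CNN1 0.429, TAGLN −0.159 and CALD1 −0.484 over the 14 libraries. Over the 11 H1975–OR libraries these were 0.254, 0.392, −0.200, −0.521 and −0.673.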

How the data were processed

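RNA sequencing values of 15 libraries in 5 groups of 3 were used, with groups taken from the sample labels. As deposited, the values are estimated counts per gene, which the authors made from stranded total RNA libraries with kallisto and tximport, without scaling for depth or length, and 63.7% of the values are not whole. The submitters' processing notes name CASAVA 1.8.2, STAR 2.5.2b, kallisto 0.43.0 and GRCh38. The transcript annotation is not given in the sources used here. Reads that fit several genes are shared by estimation, which affects overlapping genes most.

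Counts were rounded and tested with edgeR 4.0.16 in R 4.3.3 (filterByExpr with a minimum count of 10 and total of 15, TMM, quasi-likelihood test, Benjamini-Hochberg adjustment over all genes tested, threshold 0.05). H1975–OR against H1975 and 1,25(OH)2D3 against vehicle came from one fit of 8 libraries, and the comparisons with osimertinib from one fit of 11 H1975–OR libraries. Sample 3a was left out of both, as in the study. Depth is given as estimated totals per library, and intervals and floors cover counting error only. Same-letter libraries were checked for shared deviations from their group means. Every same-letter pair had r above 0.1 between vehicle, osimertinib and both agents (0.118 to 0.464), but not against H1975 (−0.123 to 0.082) or 1,25(OH)2D3 (0.000 to 0.156). The letter was therefore used as a replicate block beside the tests among those 3 groups. For 1,25(OH)2D3 the check had 2 libraries, without Sample 3a, and could not decide whether its letters pair. Gene models and transcript lengths came from GENCODE release 44. Levels of family members are compared per kilobase of the canonical transcript, or of the longest where stated. The marker sums add CPM without a correction for length, so genes with longer transcripts weigh more in them.

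The 10 genes, the pathway and marker lists, and the tests were chosen with earlier results of these data known. All 10 genes are described. From each pathway list the counts called are given with up to 4 of the called genes of smallest p, and 5 genes most like MYOCD are named. A called gene of the smooth muscle list is not reported here. A gene named beyond this rule, such as TMOD3 and the neighbours of MYOCD, was chosen after its values were seen. Alternatives were RLE size factors, DESeq2 1.42.0, other filters, Sample 3a kept in, the replicate block, other sets of libraries, each library left out, Spearman's correlation and the longest transcript. In simulated counts with 200 changed genes the test recovered 131 for osimertinib against vehicle with 7 false calls. It recovered 143 for 1,25(OH)2D3 against vehicle with 6, and 97 for the difference of effects with 5. Recovery at the fold changes and count levels of the 10 genes was not tested.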

Additional observations from a re-analysis of the deposited data

Results flagged for a closer look

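Sample 3a, the 1,25(OH)2D3 library left out of the reported tests, held the highest level of 2 of the genes among the H1975–OR libraries. MYL9 was at 200.3 CPM in it, where the highest of the other H1975–OR libraries was at 154.0 CPM and the highest with vehicle at 114.4 CPM. MYH11 was at 1.59 CPM in it, from 10 counts, where the highest of the others was at 1.18 CPM and the highest with vehicle at 0.818 CPM. Samples 3b and 3c of the same group were at 68.5 and 63.2 CPM for MYL9.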

How the results depend on the processing

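Of the numbers of members called, 126 of 140 were within 1.5 times the reported ones, which were 0 in every treatment comparison. Against H1975, requiring at least 10 counts in every library left 1 of the 3 called members, TPM1, since MYOCD and CNN1 were no longer tested. Members called rose from 0 to 1 with DESeq2 for 1,25(OH)2D3 (CNN1), for osimertinib and for both agents against vehicle (MYL9 each), and to 2 for both agents against 1,25(OH)2D3 (CNN1 and MYL9). The replicate block gave 1 for both agents against vehicle, where 461 of 12503 genes were called. For both agents against 1,25(OH)2D3 the block gave 2 (CNN1, edgeR adjusted p = 0.0169, and MYL9, 0.0429), where 183 of 12503 genes were called. With 2 hormone-treated libraries it could not be decided whether the letters pair there. The block changed no other call of a member. With the block the log2 fold change was below 0 for 7 of 8 members with 1,25(OH)2D3 (median −0.41) and above 0 for 6 of 8 for both agents against 1,25(OH)2D3, TPM2 and CALD1 excepted, and that of CNN1 in the difference of effects was 2.03 ± 0.47. The fit of 14 libraries gave 1 (MYL9) for both agents against 1,25(OH)2D3, where 71 of 12819 genes were called. Leaving out each library in turn gave 0 to 1 members called for osimertinib against vehicle, both agents against vehicle and both agents against 1,25(OH)2D3, with MYL9 called only without Sample 2a (edgeR adjusted p of 0.0278, 0.0125 and 0.00877). The cause was not tested. Without Sample 2a, 29, 110 and 76 of 12431 genes were called in these comparisons. A set with letters b and c only was chosen after the data were seen. In it 2 members (MYL9 and MYOCD) were called for osimertinib and for both agents against vehicle. For both agents against 1,25(OH)2D3, 3 were called (with CNN1). In these comparisons 80, 285 and 207 of 12269 genes were called. MYOCD then had log2 fold changes of 1.48, 1.64 and 2.12. This set leaves out the letter a libraries. In them MYOCD was 0.555, 0.149 and 0.245 times the mean of b and c with vehicle, osimertinib and both agents. The calls of MYOCD rest on that choice of libraries, and nothing is read from them. The only members past the reported test were the 3 against H1975, and their log2 fold changes kept their sign. Some treatment values, none of which had passed, changed sign. CNN1 went down to −0.73 for osimertinib and −0.54 for both agents against vehicle, and MYL9 up to 0.37 for 1,25(OH)2D3.

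Numbers of all genes called moved more. They ran from 1426 to 3041 against H1975 (2521 reported), 5 to 124 for 1,25(OH)2D3 (19), 1 to 117 for osimertinib (6), 2 to 66 for both agents against osimertinib (12), 0 to 329 for both agents against 1,25(OH)2D3 (32), 4 to 461 for both agents against vehicle (62) and 0 to 11 for the difference of effects (0). Against H1975, the log2 fold change of MYOCD was 9.85 without Sample 1b and that of TPM2 −1.42 without Sample 2a. Per kilobase of the longest annotated transcript in place of the canonical one, TPM1 was at 49.2 in place of 159.9 CPM in H1975, below CALD1 at 59.2. ACTA2, MYH11 and LMOD1, at 13 counts or fewer per library, are limited by depth.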
